A study of Mus musculus with 15 samples.

Results

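The SR and hnRNP splicing factors are 33 of the 40402 genes of a bulk RNA-seq count table of 4T1 mouse mammary carcinoma cells, a model of triple-negative breast cancer. They were chosen by symbol, with earlier results of these data known. They are the rows that begin with Srsf and a number or with Hnrnp, plus Tra2a and Tra2b, with 1 pseudogene symbol left out. The rule gives 11 SR genes, 2 Tra2 genes and 20 hnRNP genes. The cells, labelled WT, were left untreated or received an extract of blackberry (BLA) or of blueberry (BLU), or gold nanoparticles made with either extract (BLA-A and BLU-A). Each of the 5 conditions has 3 columns in the table, labelled as replicates. A sequencing summary among the supplements lists 1 set of raw reads a condition and 3 equal subsets for it, although the paper elsewhere speaks of independent replicates and of 15 libraries. As the columns also differed by less than separate draws of reads would, they were averaged and each condition counts as 1 library. The labels give each column a batch date of its own, so batch and condition cannot be told apart.

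SR proteins are RNA-binding proteins with a domain rich in arginine and serine, which is phosphorylated by kinases of the Srpk and Clk families. They bind exonic enhancers, mostly promote the use of nearby splice sites, and some travel with the RNA to the cytoplasm. Tra2 proteins are close relatives that bind purine-rich exonic enhancers. The hnRNPs coat nuclear RNA, and several of them repress exons or compete with SR proteins for sites. Many genes of both families hold an ultraconserved or "poison" exon whose use sends their own RNA to nonsense-mediated decay, by which the proteins limit their own level.

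Total counts per column ran from 25611976 to 26957141, and the chi-square per degree of freedom between the columns of a condition was 0.0951 to 0.475, where separate draws give about 1. Values below are TMM-normalized CPM, counts scaled to a common library size, and fold changes are log2 of CPM plus 0.5. With 1 library a condition, no single treatment has a test. A gene was counted as higher or lower past a log2 fold change of 0.5, and the share of all 17594 genes tested past the same value is given as background. A gene was tested if it had at least 1 CPM in at least 1 library, and all 33 members passed. Srsf12 passed through BLU-A alone, the library where it is highest. The untreated library is the common reference of the 4 treatments, so their values are not independent. The counting error was small, with 95% half-widths of at most 0.18 on the log2 scale for every member except Srsf12. Intervals cover counting error only. In bulk RNA, fewer cells that express a gene and less RNA per cell cannot be told apart. The epithelial markers Krt8, Krt18, Epcam and Cdh1 were all over 1 CPM in every library, and their summed level ran from 801 CPM in BLA to 1396 CPM in BLA-A. Of the markers of other cell types, 1 of 4 leukocyte markers (Cd68), 1 of 3 endothelial markers (Pecam1), 1 of 3 fibroblast markers (Pdgfra) and 0 of 2 adipocyte markers were over 1 CPM in every library. Their summed levels ran from 8.65 to 9.94, from 1.75 to 4.06, from 87.3 to 102 and from 0 to 0.666 CPM.

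The promoters of 4 members that the results turn on are shown here, as the 250 bases before the first base of the canonical transcript on GRCm39 (GENCODE release M39), in the direction of transcription. Tra2a (chr6:49241018-49241267, minus strand) and Tra2b (chr16:22084825-22085074, minus strand) lay above the untreated level in the 4 treatments. Hnrnpa2b1 (chr6:51448050-51448299, minus strand) was the member farthest from its untreated level, and Srsf1 (chr11:87937879-87938128, plus strand) is the founding member of the SR family. Capitals mark matches to 6 short motifs on either strand, which are the CCAAT box (CCAAT), the GC box (GGGCGG), an ETS motif (CCGGAAG), the CRE half-site (TGACG), the E-box (CACGTG) and the TATA box (TATAAA).
Tra2a: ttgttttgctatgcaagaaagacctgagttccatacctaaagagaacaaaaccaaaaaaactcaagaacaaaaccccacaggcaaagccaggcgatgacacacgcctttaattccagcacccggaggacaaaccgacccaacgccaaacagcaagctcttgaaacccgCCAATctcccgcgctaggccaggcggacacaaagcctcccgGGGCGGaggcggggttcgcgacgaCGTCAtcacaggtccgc
Tra2b: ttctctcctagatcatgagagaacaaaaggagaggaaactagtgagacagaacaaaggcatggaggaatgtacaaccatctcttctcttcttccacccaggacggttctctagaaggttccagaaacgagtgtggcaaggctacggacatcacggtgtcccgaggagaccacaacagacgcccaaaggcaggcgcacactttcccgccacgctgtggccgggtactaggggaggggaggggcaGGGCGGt
Srsf1: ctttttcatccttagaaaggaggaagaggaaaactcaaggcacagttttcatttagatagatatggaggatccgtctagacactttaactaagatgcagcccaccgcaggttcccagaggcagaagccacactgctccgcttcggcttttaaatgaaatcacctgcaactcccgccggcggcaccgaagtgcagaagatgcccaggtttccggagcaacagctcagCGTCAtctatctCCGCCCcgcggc
Hnrnpa2b1: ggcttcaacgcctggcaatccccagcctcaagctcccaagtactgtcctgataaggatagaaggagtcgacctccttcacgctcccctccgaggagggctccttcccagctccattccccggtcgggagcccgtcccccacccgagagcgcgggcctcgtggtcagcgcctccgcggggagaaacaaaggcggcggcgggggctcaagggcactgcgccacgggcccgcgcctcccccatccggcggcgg
The Tra2a window held a CCAAT box, a GC box and a CRE half-site, Srsf1 a GC box and a CRE half-site, Tra2b a GC box, and Hnrnpa2b1 none of the 6. A match describes the letters of the window and not a bound site. Over the 33 members, 63.6% of windows held the GC box, against 47.8% of 13629 tested protein-coding genes. The CRE half-site was in 36.4% against 22.4%, the CCAAT box in 39.4% against 35.5%, the ETS motif in 15.2% against 9.40% and the E-box in 9.09% against 7.45%. The TATA box was in 0 of the 33 member windows and in 7.59% of all. The median GC content was 58.0% in the members and 56.4% in all.

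The members' genes were short, with a median span of 14583 bases against 29375 bases for tested protein-coding genes. Transcripts annotated as targets of nonsense-mediated decay were listed for 27 of 33 members (81.8%), against 73.0% of protein-coding genes, with a median of 8 such transcripts per member against 3. Reads were counted over whole genes, so productive and decay-targeted transcripts are summed in every value here and isoforms were not measured. Besides the copies named below, Srsf10, Hnrnpc and Hnrnpf have 2 near-identical copies each and Srsf3, Srsf5, Hnrnph2 and Hnrnpk 1 each, so part of their reads may be placed elsewhere. Srsf4, Srsf11, Hnrnpa3, Hnrnpk, Hnrnpm and Hnrnpul2 overlap another annotated gene on the same strand, and reads there cannot be told apart. The 33 genes lay on 17 chromosomes, with at most 4 on chromosome 11. Hnrnpd and Hnrnpdl, which encode paralogous AU-rich element binding proteins, are neighbours on chromosome 5 with 52287 bases between them. The other pairs within 1 Mb were Hnrnpll and Srsf7, Hnrnpa0 and Hnrnpk, and Srsf10 and Hnrnpr.

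In BLA-treated cells, 3 of the 33 members were higher (Tra2a, Tra2b and Hnrnph3) and 9 were lower (Hnrnpa0, Srsf1, Srsf7, Srsf9, Hnrnph1, Srsf12, Hnrnpa2b1, Srsf6 and Hnrnpd). The background was 21.1% of all genes higher and 21.4% lower. Among the 7640 genes with a mean of at least 20 CPM, 14.8% were higher and 12.6% lower. The members' median log2 fold change was -0.29, against -0.01 over all genes, with -0.13 for the SR and Tra2 genes and -0.33 for the hnRNPs. No member reached 1 in size on that scale, which 16.4% of all genes and 4.42% of the abundant 7640 did. With DESeq2 size factors in place of TMM 10 members were lower in BLA, and with scaling by total counts 12, with 3 higher under each.

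In BLU-treated cells 2 members were higher (Tra2a and Tra2b) and 2 lower (Srsf12 and Hnrnpa0). The background was 18.3% higher and 14.6% lower, and in the abundant genes 11.5% and 4.94%. With DESeq2 size factors in place of TMM, neither Tra2 gene passed 0.5 in BLU. The members' median was -0.11, against -0.01 over all genes. Srsf12 was the 1 member past 1 in size, where the background was 10.3%, and 2.03% in the abundant genes. Its level was close to the detection limit, as described below.

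BLA-A-treated cells held the widest spread of the 4 treatments, with 4 members higher (Srsf2, Srsf9, Hnrnpf and Hnrnph3) and 11 lower (Hnrnpa2b1, Srsf12, Hnrnpul2, Hnrnpu, Hnrnpll, Srsf6, Hnrnpd, Srsf7, Srsf10, Hnrnpdl and Srsf4). The background was 23.4% higher and 26.0% lower, and in the abundant genes 24.4% and 15.5%. Past 1 in size were Hnrnpa2b1, Srsf12 and Hnrnpul2, against 20.9% of all genes and 11.4% of the abundant ones. The median of the members was -0.15, against -0.01 over all genes. Scaling BLA-A by total counts moved the median of all genes to -0.18 and the split of members to 0 higher and 13 lower. Under that scaling Hnrnpa0, Hnrnpa1, Hnrnph2, Hnrnpk and Hnrnpul1 went from above to below their untreated level.

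In BLU-A-treated cells 0 members were higher and 1 was lower (Hnrnpa0), against a background of 12.9% and 11.9%. No member passed 1 in size, where the background was 7.87%. The median of the members was -0.13, against 0.00 over all genes. Among abundant genes 5.34% were higher and 0.694% lower, and 0.641% passed 1 in size.

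**Figure D1:**
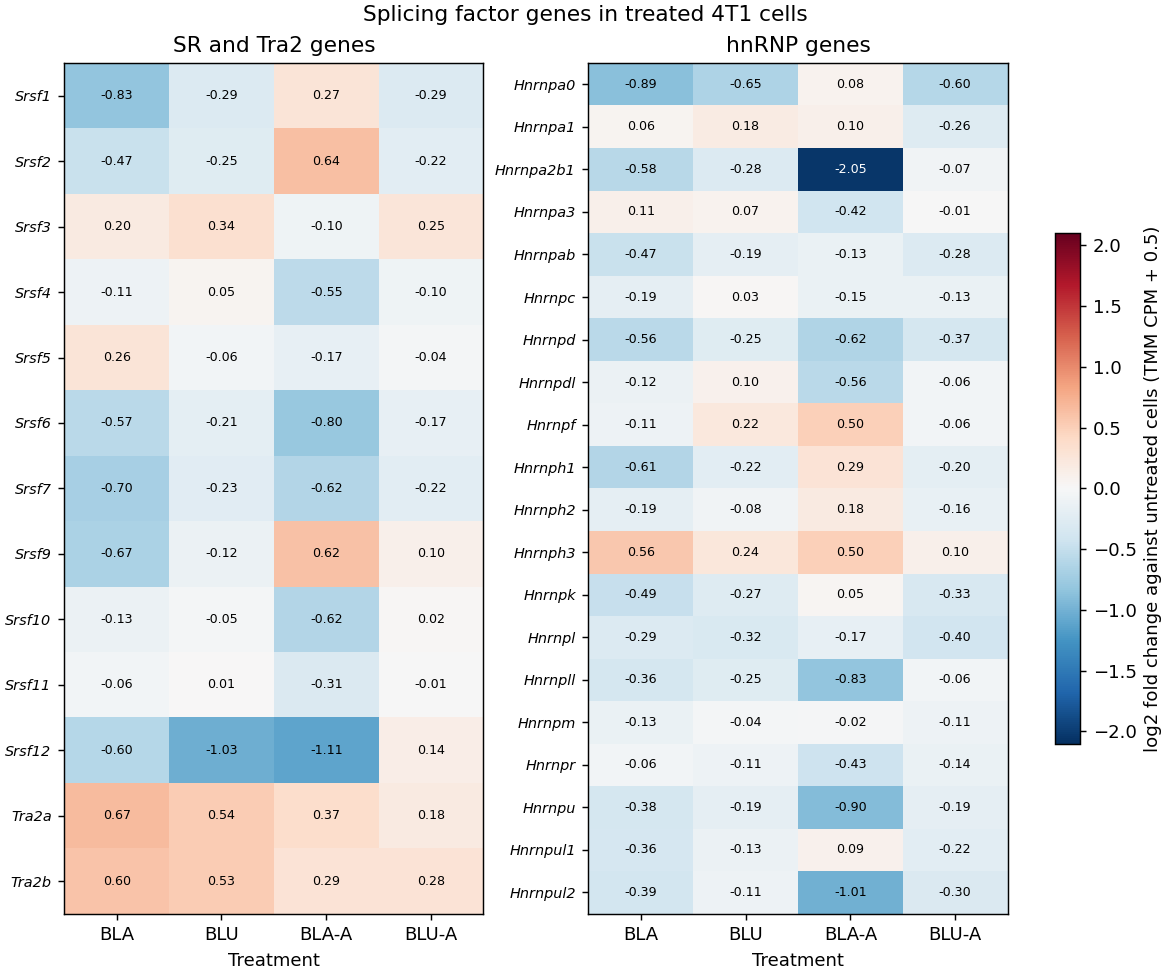
Log2 fold change of the 33 members (rows) in each of the 4 treatments (columns) against untreated cells, on TMM CPM plus 0.5, with 1 library a condition. Tra2a and Tra2b are above 0 in each column, and the deepest value is Hnrnpa2b1 in BLA-A at -2.05.

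**Figure D2:**
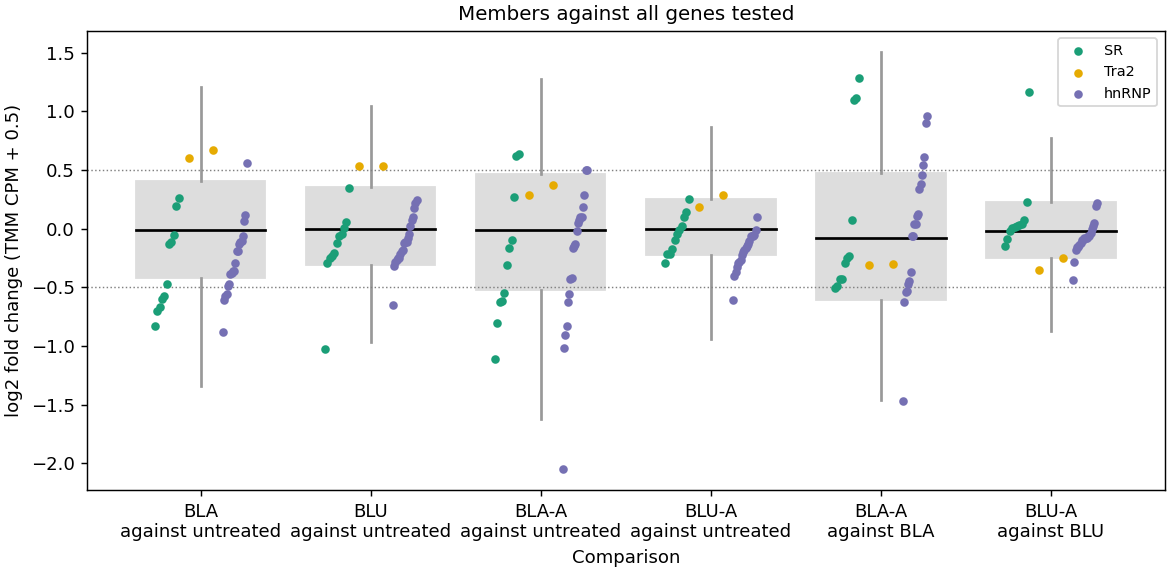
Log2 fold changes of the SR, Tra2 and hnRNP genes (points) beside all 17594 genes tested in 6 comparisons. Grey boxes hold the middle 50% of all genes with their median as a line, whiskers run from the lowest 5% to the highest 5%, and dotted lines mark 0.5 in either direction.

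The 4 treated libraries together were set against the untreated one with the edgeR quasi-likelihood test, whose spread comes from the differences between treatments. Over all genes 4 of 17594 had an adjusted p under 0.05 (0.0227%), and 478 had an unadjusted p under 0.05. Among the 33 members the count was 0 at either level, and it was also 0 at either level with DESeq2, which gave 1 member no adjusted p. The smallest p of a member was that of Hnrnpd, with a log2 fold change of -0.44 ± 0.24 (SE), a p of 0.107 and an adjusted p of 0.9995 (edgeR quasi-likelihood test, Benjamini-Hochberg adjustment). Over the 12 alternative fits on 5 or 4 libraries, the smallest adjusted p of a member ran from 0.127 to 1. The next were Tra2b at 0.44 ± 0.26 and Tra2a at 0.45 ± 0.28 (SE). Differences below are therefore levels of single libraries with their counting error.

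Tra2a and Tra2b, the genes of the Tra2 proteins, were above their untreated level in each treatment. Tra2a was at 77.8 CPM untreated, 124 with BLA, 113 with BLU, 101 with BLA-A and 88.3 with BLU-A. Tra2b was at 97.5 CPM untreated, 148 with BLA, 142 with BLU, 119 with BLA-A and 119 with BLU-A. Both were lowest in untreated cells and highest in BLA. In the order BLA, BLU, BLA-A, BLU-A, the log2 fold changes were 0.67, 0.54, 0.37 and 0.18 for Tra2a. For Tra2b they were 0.60, 0.53, 0.29 and 0.28. The ratio of Tra2a to Tra2b counts within a library stayed near its untreated value, at 0.797 untreated, 0.836 with BLA, 0.799 with BLU, 0.843 with BLA-A and 0.743 with BLU-A. Tra2b has 4 near-identical copies elsewhere in the genome, at 90% identity or more over at least 50% of its transcript, so reads from it may be lost or placed elsewhere in uniquely aligned data, and its level is uncertain for that reason.

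Srsf1, Srsf2 and Srsf9 shared their lowest and their highest library. Srsf1, which promotes proximal 5′ splice sites and can act as an oncogene, was at 175 CPM untreated, 98.3 with BLA, 143 with BLU, 211 with BLA-A and 143 with BLU-A. Srsf2, a nuclear SR protein that binds exonic enhancers, was at 159.6 CPM untreated, 115 with BLA, 134 with BLU, 248 with BLA-A and 137 with BLU-A. Srsf9, a smaller SR protein close to Srsf1 in sequence, was at 38.1 CPM untreated, 23.8 with BLA, 35.0 with BLU, 58.8 with BLA-A and 41.0 with BLU-A. In all 3 BLA was the lowest library and BLA-A the highest. Their log2 fold changes in BLA were -0.83, -0.47 and -0.67, and in BLA-A 0.27, 0.64 and 0.62. The ratio of Tra2b to Srsf1 counts was 0.557 untreated, 1.51 with BLA, 0.991 with BLU, 0.566 with BLA-A and 0.831 with BLU-A. Its counting interval in BLA lay above that of untreated cells, and that in BLA-A overlapped it.

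Srsf6, Srsf7 and Srsf10 had their lower values in the blackberry conditions. Srsf6, an SR protein with a pair of RNA recognition motifs, was at 299 CPM untreated, 201 with BLA, 258 with BLU, 171 with BLA-A and 265 with BLU-A. Srsf7, which carries a zinc knuckle and helps export mRNA, was at 125 CPM untreated, 76.9 with BLA, 106 with BLU, 81.2 with BLA-A and 108 with BLU-A. Srsf10, which represses splicing when dephosphorylated, was at 104 CPM untreated, 94.8 with BLA, 100.4 with BLU, 67.6 with BLA-A and 106 with BLU-A. Srsf6 and Srsf7 were lower in both BLA and BLA-A, with log2 fold changes of -0.57 and -0.80 for Srsf6 and of -0.70 and -0.62 for Srsf7. Srsf10 was near its untreated level except in BLA-A, where its log2 fold change was -0.62.

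Srsf3, the smallest SR protein and the closest relative of Srsf7, was at 113 CPM untreated, 129 with BLA, 143 with BLU, 105 with BLA-A and 134 with BLU-A. The ratio of Srsf3 to Srsf7 counts was 0.899 untreated, 1.68 with BLA, 1.34 with BLU, 1.297 with BLA-A and 1.25 with BLU-A, so it lay above the untreated value in the 4 treatments. Srsf4, a long relative of Srsf6, was at 127 CPM untreated, 118 with BLA, 132 with BLU, 86.8 with BLA-A and 119 with BLU-A. Its one value past 0.5 was -0.55 in BLA-A. Srsf5, a further relative of Srsf4 and Srsf6, was at 93.5 CPM untreated, 112 with BLA, 89.3 with BLU, 83.1 with BLA-A and 90.6 with BLU-A. It did not pass 0.5 in any treatment. Srsf11, an SR-type protein that binds the U2AF splice site factor, was at 182 CPM untreated, 175 with BLA, 183 with BLU, 147 with BLA-A and 180.5 with BLU-A, with its lowest level in BLA-A.

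Srsf12, a little-studied relative of Srsf10, was at 0.888 CPM untreated, 0.416 with BLA, 0.181 with BLU, 0.144 with BLA-A and 1.03 with BLU-A. These levels rest on means of 23.7, 11.3, 5, 3.33 and 27.3 counts. The 95% counting interval was 0.567 to 1.33 CPM untreated, 0.0331 to 0.400 CPM with BLA-A and 0.681 to 1.497 CPM with BLU-A. The intervals of BLU and BLA-A lay under that of untreated cells, while that of BLU-A overlapped it. The limit set by 3 counts was 0.111 to 0.117 CPM.

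Hnrnpa2b1, an hnRNP of the A/B family proposed to read methylated RNA, gave the largest difference of any member. It was at 1219 CPM untreated, 816 with BLA, 1001 with BLU, 294 with BLA-A and 1164 with BLU-A. The BLA-A level was 0.241 times the untreated one, a log2 fold change of -2.05, while BLU-A was within 0.07 of untreated on that scale. Hnrnpa1, its paralog and a repressor of many exons, was at 44.4 CPM untreated, 46.4 with BLA, 50.2 with BLU, 47.6 with BLA-A and 36.9 with BLU-A. The ratio of Hnrnpa2b1 to Hnrnpa1 counts within a library was 27.4 untreated, 17.6 with BLA, 19.9 with BLU, 6.18 with BLA-A and 31.5 with BLU-A. Against Hnrnpa3, a further paralog, the ratio was 17.4 untreated, 10.8 with BLA, 13.6 with BLU, 5.65 with BLA-A and 16.8 with BLU-A. BLA-A was the lowest library in both ratios, which do not depend on the scaling between libraries. Hnrnpa1 has 7 near-identical copies in the genome, Hnrnpa3 has 2 and Hnrnpa2b1 has 1, so the height of the ratios is uncertain.

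Hnrnpa0, an A/B family member encoded by a single coding exon that binds AU-rich elements, was at 115 CPM untreated, 62.2 with BLA, 73.2 with BLU, 122 with BLA-A and 75.7 with BLU-A. It was the member lowest against untreated in BLA (-0.89), and the 1 member lower past 0.5 in BLU-A (-0.60). BLA, BLU and BLU-A lay between 62.2 and 75.7 CPM, below both untreated and BLA-A cells. Hnrnpa3, a nuclear A/B protein, was at 70.0 CPM untreated, 75.8 with BLA, 73.5 with BLU, 52.1 with BLA-A and 69.4 with BLU-A. Hnrnpab, which binds single-stranded nucleic acid, was at 536 CPM untreated, 387 with BLA, 470.3 with BLU, 488 with BLA-A and 440.1 with BLU-A. Neither passed 0.5 against untreated cells in any treatment.

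**Figure D3:**
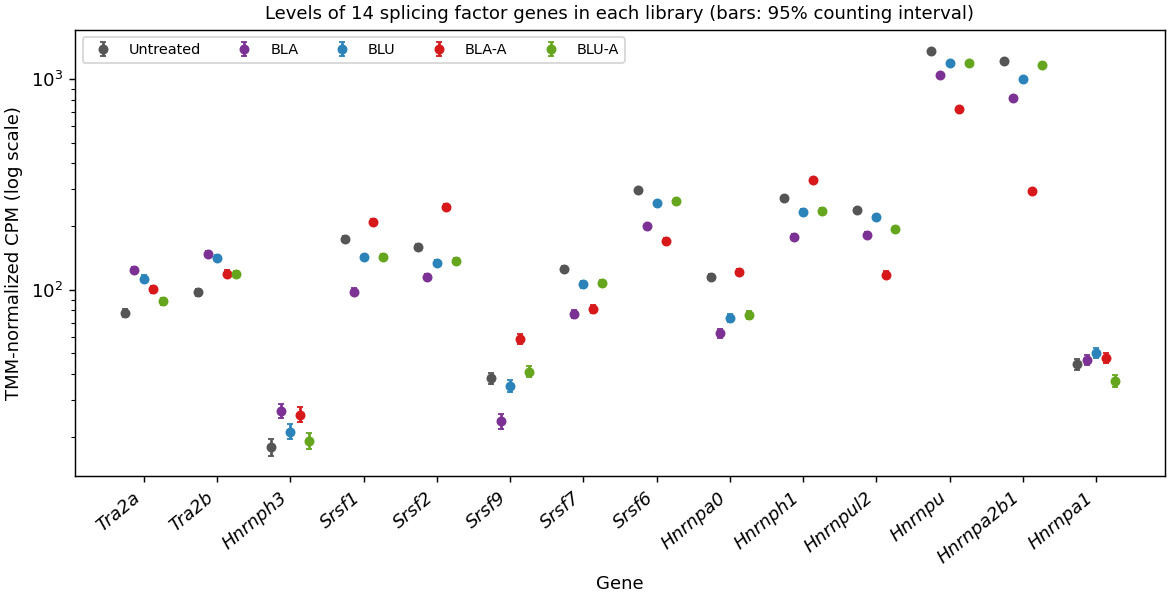
TMM-normalized CPM (log axis) of 14 members in the 5 libraries, with 95% counting intervals as bars. Hnrnpa2b1 is at 1219 CPM untreated and at 294 CPM with BLA-A, while Srsf1, Srsf2, Srsf9 and Hnrnph1 are highest in BLA-A and lowest in BLA.

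Hnrnpu, a scaffold protein that binds chromatin and RNA and with Hnrnpa2b1 the most abundant member, was at 1352 CPM untreated, 1041 with BLA, 1189 with BLU, 722 with BLA-A and 1189 with BLU-A. Hnrnpul1, its relative that also acts at DNA breaks, was at 253 CPM untreated, 197 with BLA, 232 with BLU, 271 with BLA-A and 217 with BLU-A. Hnrnpul2, a further relative, was at 239 CPM untreated, 182 with BLA, 221 with BLU, 118 with BLA-A and 194 with BLU-A. BLA-A was the lowest library for Hnrnpu (-0.90) and Hnrnpul2 (-1.01), but not for Hnrnpul1 (0.09, which turned negative under total-count scaling). The ratio of Hnrnpul1 to Hnrnpul2 counts was 1.06 untreated, 1.08 with BLA, 1.05 with BLU, 2.29 with BLA-A and 1.12 with BLU-A.

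Hnrnpl, which binds CA-rich elements and is well known for its control of exon choice, was at 367 CPM untreated, 300.2 with BLA, 295 with BLU, 327 with BLA-A and 278 with BLU-A. Hnrnpll, its paralog with a known role in lymphocyte CD45 splicing, was at 164 CPM untreated, 127 with BLA, 138 with BLU, 91.9 with BLA-A and 158 with BLU-A. The ratio of Hnrnpl to Hnrnpll counts was 2.24 untreated, 2.36 with BLA, 2.14 with BLU, 3.56 with BLA-A and 1.76 with BLU-A. Its counting interval in BLA-A lay above those of the other 4 libraries, and that in BLU-A lay below all others. Hnrnpll has a log2 fold change of -0.83 in BLA-A, and Hnrnpl of -0.17. Hnrnpd, also called AUF1, a factor that marks AU-rich RNA for decay, was at 267 CPM untreated, 181 with BLA, 225 with BLU, 173 with BLA-A and 206 with BLU-A. Hnrnpdl, its neighbour and paralog, was at 89.7 CPM untreated, 82.7 with BLA, 96.0 with BLU, 60.7 with BLA-A and 85.8 with BLU-A. Both were lowest in BLA-A, at -0.62 and -0.56.

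The G-run binding proteins of the hnRNP F/H group differed in their order of libraries. Hnrnph1 was at 273 CPM untreated, 179 with BLA, 235 with BLU, 334 with BLA-A and 238 with BLU-A. Hnrnpf was at 87.3 CPM untreated, 80.9 with BLA, 102 with BLU, 124 with BLA-A and 83.7 with BLU-A. Hnrnph3 was at 17.9 CPM untreated, 26.7 with BLA, 21.3 with BLU, 25.6 with BLA-A and 19.3 with BLU-A. Hnrnph1 was lowest in BLA and highest in BLA-A, Hnrnpf was also highest in BLA-A, and Hnrnph3 was above untreated cells in each treatment. The counting intervals of Hnrnph3 in BLU and in BLU-A overlapped that of untreated cells. Hnrnpf and Hnrnph3 were both at 0.50 in BLA-A, on the threshold itself. Hnrnph2, the X-linked member, was at 43.0 CPM untreated, 37.5 with BLA, 40.6 with BLU, 48.9 with BLA-A and 38.3 with BLU-A and did not pass 0.5.

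Hnrnpk, which binds C-rich sequence and also acts in transcription and translation, was at 316 CPM untreated, 225 with BLA, 263 with BLU, 327 with BLA-A and 252 with BLU-A. Its log2 fold change was -0.49 in BLA. Hnrnpc, which binds uridine tracts of introns, was at 218 CPM untreated, 192 with BLA, 222 with BLU, 197 with BLA-A and 199 with BLU-A. Hnrnpr, a relative of Syncrip that acts in mRNA transport, was at 126 CPM untreated, 120.4 with BLA, 116 with BLU, 93.2 with BLA-A and 114 with BLU-A. Hnrnpm, which binds GU-rich sequence and acts in the exon switch of epithelial to mesenchymal change, was at 274 CPM untreated, 250 with BLA, 266 with BLU, 269.9 with BLA-A and 255 with BLU-A. Hnrnpm varied least of the 33 members over the 5 libraries. None of these 4 passed 0.5 against untreated cells in any treatment on the TMM scale. Hnrnpk did so in BLA with DESeq2 size factors (-0.51) and with total counts (-0.52).

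Per kilobase of exon, a level that allows genes to be compared, the most abundant members in untreated cells were Hnrnpa2b1 at 117 CPM per kb and Hnrnpu at 116.6 CPM per kb, a difference within their counting error. Hnrnpab followed at 80.9, Hnrnpl at 55.0, Srsf6 at 48.5 and Srsf2 at 44.3 CPM per kb. Srsf12 was the lowest of the 33 at 0.22 CPM per kb. Since introns were counted too, the order depends on the length used. By gene span Hnrnpab went from place 3 to place 9, while Hnrnpa2b1 and Hnrnpu kept places 1 and 2.

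As a share of all counts, the 20 hnRNP genes held 0.628% in untreated cells (Wilson 95% interval 0.625 to 0.631%), 0.466% with BLA, 0.547% with BLU, 0.379% with BLA-A and 0.548% with BLU-A. The 13 SR and Tra2 genes held 0.165%, 0.143%, 0.162%, 0.134% and 0.158% in the same order. Without Hnrnpa2b1 and Hnrnpu, the other hnRNPs held 0.362%, 0.278%, 0.322%, 0.287% and 0.305%. The treated libraries were below the untreated one in each of these sums, and the SR and Tra2 share in BLU was the one whose interval overlapped that of untreated cells. On the TMM scale the summed hnRNP level was 6073 CPM in untreated cells and 4186 CPM in BLA-A. Without Hnrnpa2b1 and Hnrnpu it was 3502 CPM untreated, 2753 CPM in BLA and 3170 CPM in BLA-A. The SR and Tra2 sum on that scale was 1592 CPM untreated, 1416 CPM in BLA and 1481 CPM in BLA-A. Its lowest library was therefore BLA, while by share of counts it was BLA-A.

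**Figure D4:**
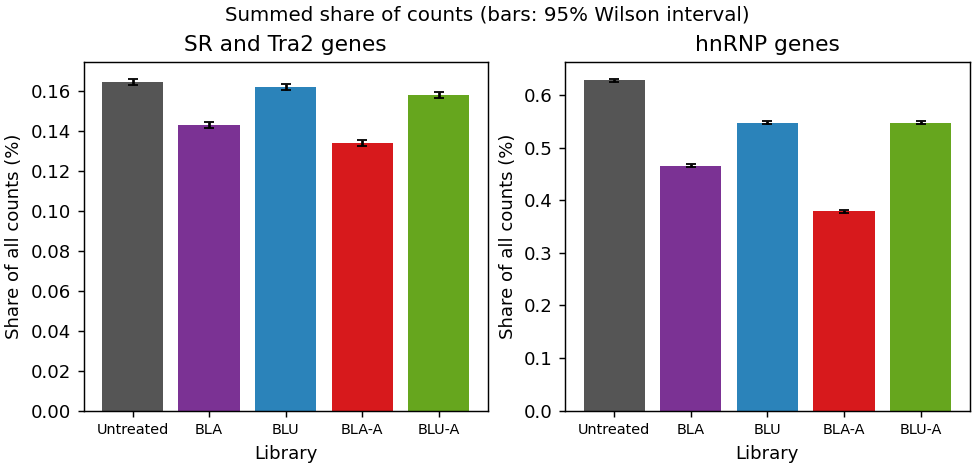
Share of all counts (percent, axis from 0) held by the SR and Tra2 genes and by the hnRNP genes in each library, with 95% Wilson intervals as bars. The hnRNP share is 0.628% untreated and 0.379% with BLA-A, and the SR and Tra2 share is 0.165% and 0.134%. Shares are scaled by total counts, and on the TMM scale the SR and Tra2 sum is lowest in BLA.

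The sums do not show single genes, so the place of each member's lowest and highest library was counted as well. The lowest level was in BLA-A for 15 members, in BLA for 13, in untreated cells for 3, in BLU-A for 2 and in BLU for 0. Over all genes tested these shares were 32.8% for BLA-A, 23.4% for BLA, 19.8% for untreated cells, 9.73% for BLU-A and 14.3% for BLU. The highest level was in untreated cells for 11 members, in BLA-A for 9, in BLU for 6, in BLA for 5 and in BLU-A for 2. Over all genes the shares were 19.3%, 29.4%, 17.1%, 23.4% and 10.8% in that order.

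The nanoparticle form was also set against its plain extract, as BLA-A against BLA and BLU-A against BLU. No condition held gold without extract, so the part of the gold itself cannot be told apart. In BLA-A against BLA, 7 members were higher (Srsf9, Srsf2, Srsf1, Hnrnpa0, Hnrnph1, Hnrnpf and Hnrnpk) and 5 lower (Hnrnpa2b1, Hnrnpul2, Hnrnpa3, Hnrnpu and Srsf12). The background was 24.2% higher and 29.6% lower, and in the abundant genes 25.3% and 20.1%. Srsf9 (1.29), Srsf2 (1.11), Srsf1 (1.10) and Hnrnpa2b1 (-1.47) passed 1 in size, against 24.5% of all genes and 15.5% of the abundant ones. The members' median was -0.07, against -0.08 over all genes, with -0.29 for the SR and Tra2 genes and 0.04 for the hnRNPs. With DESeq2 size factors the members' median was 0.02. With total-count scaling the split became 5 higher and 11 lower, and with DESeq2 size factors 8 and 2, and the hnRNP median changed sign under total counts (-0.12).

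In BLU-A against BLU, 1 member was higher (Srsf12 at 1.17) and 0 were lower, against a background of 10.6% and 12.0%. Srsf12 reached 1 CPM in BLU-A alone, so it was tested only through the library in which it is counted as higher. In the abundant genes the shares were 2.29% and 1.26%. Past 1 in size was Srsf12 alone, and the background was 6.68%, with 0.249% in the abundant genes. The median of the members was -0.06 and that of all genes -0.02. Tra2a and Tra2b, at -0.35 and -0.25, lay below their BLU level, and Hnrnpa1 was at -0.44.

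**Figure D5:**
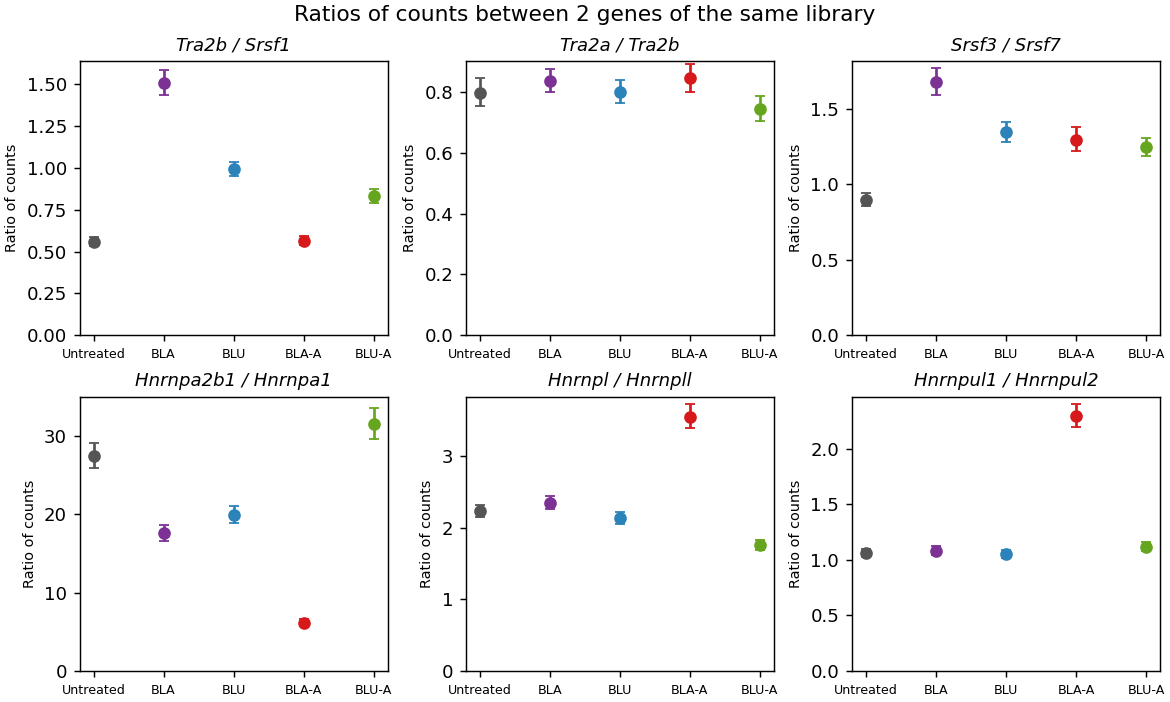
Ratio of the counts of 2 genes of the same library in the 5 libraries, for 6 pairs, with 95% counting intervals as bars and axes from 0. Hnrnpa2b1 to Hnrnpa1 is lowest in BLA-A, and Hnrnpl to Hnrnpll and Hnrnpul1 to Hnrnpul2 are highest there. Tra2a to Tra2b lies between 0.743 and 0.843.

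Gene length was weakly related to the fold changes, with a sign that differed between treatments. Over 13627 protein-coding genes the Spearman correlation of span with log2 fold change was 0.202 with BLA, 0.267 with BLU, -0.196 with BLA-A and 0.088 with BLU-A, and over the 33 members it was 0.285, 0.162, -0.235 and 0.224. The part of gene length in the members' values was not tested. Genes of a library share its depth and are not replicates. The summed epithelial markers were, like Srsf1, Srsf2, Srsf9 and Hnrnph1, highest in BLA-A and lowest in BLA, as were Krt8 and Krt18 alone, while Epcam was lowest in BLA-A (39.7 CPM against 68.8 untreated). The part of the markers in these values was not tested.

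Other genes of the splicing machinery were counted in the same way from lists of textbook members. The shares of all genes to set beside these counts are, higher and lower, 21.1% and 21.4% with BLA, 18.3% and 14.6% with BLU, 23.4% and 26.0% with BLA-A, and 12.9% and 11.9% with BLU-A. Under total-count scaling the BLA-A medians of the kinase, tissue-restricted, core spliceosome and decay factor lists given below turned from positive to negative (-0.08, -0.08, -0.03 and -0.04). Of the SR protein kinases and nuclear import receptors, 8 of 9 were tested, since Clk2 was listed at 0 in every column. The list's median was 0.34 with BLA, 0.34 with BLU, 0.09 with BLA-A and 0.10 with BLU-A, with 3, 2, 1 and 1 genes higher and 0, 0, 1 and 0 lower. Srpk3, a muscle-enriched SR kinase, was at 1.68 CPM untreated, 5.34 with BLA, 5.76 with BLU, 1.67 with BLA-A and 4.95 with BLU-A, and Srpk1, the broadly expressed SR kinase, was at 128 CPM untreated, 98.4 with BLA, 121 with BLU, 124 with BLA-A and 123 with BLU-A. The median of the 20 SR-related proteins was 0.04 with BLA, 0.09 with BLU, -0.29 with BLA-A and 0.00 with BLU-A, and in BLA-A 0 were higher and 6 lower. Those BLA-A values became -0.48 with 0 higher and 10 lower under total counts, and -0.23 with 0 and 4 under DESeq2 size factors. Rsrc1, an SR-related protein of splice site recognition, was at 126 CPM untreated, 202 with BLA, 216 with BLU, 168 with BLA-A and 159 with BLU-A. Rnps1, which binds the exon junction complex, was at 72.5 CPM untreated, 58.0 with BLA, 65.4 with BLU, 34.5 with BLA-A and 66.01 with BLU-A. Srrm3, a neural microexon factor, was at 0.713 CPM untreated, 0 with BLA, 2.32 with BLU, 0.849 with BLA-A and 0.465 with BLU-A.

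Among 24 other hnRNP-class and related RNA-binding proteins, the medians in the same order were -0.01, -0.01, 0.26 and -0.01, and in BLA-A 9 were higher and 5 lower. Under total counts the BLA-A median was 0.07, and the split turned to 5 higher and 7 lower. Ralyl, a brain-enriched relative of Raly, was at 5.58 CPM untreated, 2.80 with BLA, 4.05 with BLU, 0.575 with BLA-A and 2.38 with BLU-A. The 12 tested of 15 tissue-restricted splicing regulators had medians of 0.15, 0.08, 0.11 and 0.11. Rbfox1, a neural and muscle exon regulator, was at 16.5 CPM untreated, 8.14 with BLA, 6.24 with BLU, 1.28 with BLA-A and 4.02 with BLU-A. Mbnl2, a muscleblind protein, was at 306 CPM untreated, 518 with BLA, 434 with BLU, 476 with BLA-A and 399.9 with BLU-A. Rbfox3, a marker of neurons, was at 5.87 CPM untreated, 1.32 with BLA, 2.08 with BLU, 0.575 with BLA-A and 6.41 with BLU-A.

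The 38 core spliceosome proteins had medians of -0.34, -0.20, 0.16 and -0.11 in that order. With BLA 0 were higher and 12 lower, with BLU 0 and 5, with BLA-A 12 and 8 (9 and 12 with total counts), and with BLU-A 0 and 0. In BLA-A against BLA 21 were higher and 1 lower, where 24.2% and 29.6% of all genes were, with a median of 0.57 (15 and 2, and 0.41, with total counts). Snrpf, an Sm ring protein, was at 38.2 CPM untreated, 18.7 with BLA, 24.2 with BLU, 28.2 with BLA-A and 28.1 with BLU-A, and U2af1, which reads the 3′ splice site, was at 24.6 CPM untreated, 32.2 with BLA, 29.7 with BLU, 41.0 with BLA-A and 27.4 with BLU-A. The 10 nonsense-mediated decay factors had medians of 0.16, 0.13, 0.15 and 0.05, and 1, 1, 0 and 1 were higher and 0, 0, 1 and 0 lower. Smg6, the decay endonuclease, was at 145 CPM untreated, 282 with BLA, 234 with BLU, 154 with BLA-A and 219.6 with BLU-A. Upf3b, a decay adaptor, was at 38.8 CPM untreated, 38.01 with BLA, 46.9 with BLU, 17.8 with BLA-A and 40.4 with BLU-A. Of 4 transcription factors often linked to SR and hnRNP levels, 3 were tested, among them Myc at 235 CPM untreated, 216 with BLA, 201 with BLU, 269 with BLA-A and 191 with BLU-A. E2f1, a cell cycle factor, was at 16.8 CPM untreated, 17.1 with BLA, 17.1 with BLU, 45.4 with BLA-A and 20.0 with BLU-A.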

How the data were processed

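Total RNA of 4T1 cells was depleted of ribosomal RNA and sequenced. The authors aligned the reads to GRCm39 with STAR, counted uniquely aligned reads on whole genes by strand in OmicsBox, and deposited raw counts of 40402 genes, 15 columns in all. No row lacked a gene name, and 0 columns were left unused. Their own tables of fold changes, p-values and enrichment scores were not used. Columns of a condition were averaged where a chi-square per degree of freedom below 1.5 set them as 1 library, which held throughout. Genes reaching 1 CPM in any library were normalized by TMM in edgeR 4.0.16 (R 4.3.3), which at 25611976 to 26957141 counts per column puts 3 counts at 0.111 to 0.117 CPM. The quasi-likelihood test, tested on simulated data, compared 4 treated libraries with 1 untreated, with 3 residual degrees of freedom. Alternatives covered scaling, filter, pseudocount, columns, libraries and DESeq2 1.42.0. Near-identical copies were found by aligning transcripts to the genome with minimap2 2.31. Motifs were searched on both strands, and none of the 6 lies within another.

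The members and lists were chosen with earlier results of these data known. Values were to be given in full for the 8 SR and Tra2 and the 10 hnRNP members of largest range, the 4 most abundant of each, and members past a log2 fold change of 1. From each list came the genes with the highest and lowest mean change and those past 1 in at least 2 treatments, of which 1 gene is not reported here. The other members were added so that all 33 are shown. No test of a single treatment was possible. The p-values set the 4 treated libraries against the untreated one, with the spread between treatments as the error. They hold no estimate of the spread between untreated cultures.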

Additional observations from a re-analysis of the deposited data

Results flagged for a closer look

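With the nanoparticle set against its plain extract, Srsf12 and Hnrnpf had fold changes of opposite sign in the blackberry and the blueberry arm. Neither difference was tested. Srsf12 had a log2 fold change of -0.51 in BLA-A against BLA and of 1.17 in BLU-A against BLU, at levels of 3.33 to 27.3 counts. Its counting intervals in BLA (0.210 to 0.738 CPM) and BLA-A (0.0331 to 0.400 CPM) overlapped, so its direction in the blackberry arm was not resolved. Those in BLU (0.0589 to 0.423 CPM) and BLU-A (0.681 to 1.497 CPM) did not overlap. Hnrnpf had 0.61 in BLA-A against BLA and -0.28 in BLU-A against BLU.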

How the results depend on the processing

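No value past 0.5 in size changed sign, and 106 of 122 counts under the alternatives stayed within 1.5 times the reported one. Of the values of single members and family medians, 200 moved by more than their counting error and 1678 did not. Total counts changed the sign of 5 members in BLA-A and of 5 in BLA-A against BLA, each at most 0.185 in size. DESeq2 size factors gave 0 members higher in BLU (reported 2) and 2 lower in BLA-A against BLA (reported 5). Total counts gave 0 higher in BLA-A (reported 4) and 11 lower in BLA-A against BLA. Without a filter, 2 were lower in BLA-A against BLA. Requiring 10 counts in every library gave 1 lower in BLU (reported 2), 2 higher in BLA-A and 0 higher in BLU-A against BLU (reported 1), and a pseudocount of 2 gave 1, 2 and 0. Leaving out each column number in turn gave 1 to 2 lower in BLU, 2 to 4 higher in BLA-A and 0 to 1 higher in BLU-A against BLU. The lower value came without number 3, 1 and 3. Srsf12 fails the filter of 10 counts by its own low level, and it also fails the filter of 1 CPM when column number 3 is left out. In BLA-A, Hnrnpf and Hnrnph3 lie on the threshold itself, at 0.50. The cause of the other shifts was not tested. With the 15 columns taken as samples, 28 members passed, both without and with a replicate block (14466 and 14467 genes), where the spread is that between columns closer than separate draws. The numbers do not pair the columns. Their deviations correlated at -0.0199 to 0.0146 over 30 pairs, and 6 of 15 columns were nearest a column of their own number. One library a condition limits every value, no 2 columns share a batch date, and isoforms were not measured.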
